A study of Rattus norvegicus with 6 samples.

Results

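The genes described here belong to the Wnt and Notch signalling pathways, in RNA sequenced from the tip of the kidney inner medulla (IM tip) of control rats and of rats with diabetes induced by streptozotocin (STZ), which destroys the insulin-producing beta cells. Members were taken by gene name: Wnt ligands, frizzled (Fzd) receptors, Sfrp and Dkk modulators, Ctnnb1, Axin1, Axin2, Lef1 and Tcf7 for the Wnt pathway, and Notch receptors, Dll and Jag ligands, Hes and Hey repressors and Lfng for the Notch pathway. They were 55 of the 27321 features of the table, 40 for Wnt and 15 for Notch. Of these, 53 were single genes, among them the pseudogene Fzd10-ps1, 1 was a merged feature of Dkk4 with its neighbour Polb, and 1 was a stretch between Wnt1 and Tuba1c. Tcf7l2 and Rbpj were not analysed here.

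All animals were male Sprague-Dawley rats aged 3 months. The STZ group received STZ in citrate buffer at 62.5 mg/kg through the tail vein, the control group received vehicle by the same route, and the terminal portion of the IM was collected 15 days later in both groups. There were 3 libraries per group. The labels number the libraries and do not state that each came from a separate rat, so the p-values measure only the spread between these libraries, which may in part be technical.

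Wnt proteins are secreted lipid-modified ligands. In the canonical branch they bind frizzled receptors with an Lrp5 or Lrp6 co-receptor and stop the breakdown of beta-catenin, the product of Ctnnb1, which then acts in the nucleus with TCF/LEF transcription factors. Notch proteins are receptors for membrane-bound Dll and Jag ligands on a neighbouring cell. Cleavage by an ADAM protease and then by gamma-secretase frees the intracellular domain, which acts with the DNA-binding protein RBPJ on genes such as those of the Hes and Hey families. In the kidney both pathways are known for their parts in nephron formation, and Notch is also known for its part in the balance of principal and intercalated cells of the collecting duct.

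Promoter windows of 300 bases from RefSeq (assembly GRCr8) were found for 40 member genes, in 42 windows. They were searched on both strands for CTTTGAT, a core letter run of TCF/LEF sites (reverse complement ATCAAAG), and for TGGGAA, the core of RBPJ sites (reverse complement TTCCCA), which can overlap each other by at most 1 base. CTTTGAT occurred in 2 of the 42 member windows (4.76%) and in 1216 of all 33469 windows (3.63%). TGGGAA occurred in 14 member windows (33.3%) and in 8594 of all windows (25.7%). The letter runs are descriptions of these windows and say nothing about binding. Axin2 and Tcf7 are shown as the only member genes with CTTTGAT, which is in capitals and starts at -132 and -4 relative to the gene start. The Axin2 window is chr10:94398535-94398834 on the plus strand and the Tcf7 window is chr10:36954230-36954529 on the minus strand.
Axin2: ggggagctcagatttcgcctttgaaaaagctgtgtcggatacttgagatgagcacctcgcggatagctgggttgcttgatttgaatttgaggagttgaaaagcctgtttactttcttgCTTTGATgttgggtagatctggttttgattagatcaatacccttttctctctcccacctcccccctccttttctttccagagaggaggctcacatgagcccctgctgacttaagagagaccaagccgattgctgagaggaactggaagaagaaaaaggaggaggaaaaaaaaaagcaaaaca
Tcf7: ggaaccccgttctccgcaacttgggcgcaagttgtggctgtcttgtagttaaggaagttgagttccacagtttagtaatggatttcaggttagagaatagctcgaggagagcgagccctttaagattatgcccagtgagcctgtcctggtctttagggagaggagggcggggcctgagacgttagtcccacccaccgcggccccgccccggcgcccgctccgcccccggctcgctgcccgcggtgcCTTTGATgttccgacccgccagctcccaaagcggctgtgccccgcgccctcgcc

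Of the tested members whose libraries separated the groups, as described below, Notch1 and Wnt4 are shown and Sfrp4 is not. Notch4 is shown as the Notch receptor whose window held TGGGAA. The windows of Dll1, Hes5, Hey2 and Lfng held it 2 times as well. Neither letter run was found in the windows of Notch1 (chr3:29721564-29721863, minus strand) and Wnt4 (chr5:154797200-154797499, plus strand). The Notch4 window (chr20:4189023-4189322, minus strand) held TGGGAA 2 times on the opposite strand, read here as TTCCCA in capitals, at -246 and -93. The window for Wnt4 was rich in G and C, at 83.3%, against 69.0% for Notch1 and 57.3% for Notch4.
Notch1: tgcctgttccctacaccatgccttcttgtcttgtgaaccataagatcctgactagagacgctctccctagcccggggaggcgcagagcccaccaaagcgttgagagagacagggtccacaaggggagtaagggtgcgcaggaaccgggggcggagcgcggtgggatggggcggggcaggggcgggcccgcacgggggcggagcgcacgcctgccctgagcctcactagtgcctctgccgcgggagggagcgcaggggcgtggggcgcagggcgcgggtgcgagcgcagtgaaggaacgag
Wnt4: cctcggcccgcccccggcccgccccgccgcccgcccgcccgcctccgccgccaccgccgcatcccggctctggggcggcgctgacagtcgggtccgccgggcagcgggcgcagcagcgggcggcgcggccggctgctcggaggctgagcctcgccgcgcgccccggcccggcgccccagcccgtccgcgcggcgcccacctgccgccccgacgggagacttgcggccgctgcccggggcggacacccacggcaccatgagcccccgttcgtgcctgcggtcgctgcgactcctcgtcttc
Notch4: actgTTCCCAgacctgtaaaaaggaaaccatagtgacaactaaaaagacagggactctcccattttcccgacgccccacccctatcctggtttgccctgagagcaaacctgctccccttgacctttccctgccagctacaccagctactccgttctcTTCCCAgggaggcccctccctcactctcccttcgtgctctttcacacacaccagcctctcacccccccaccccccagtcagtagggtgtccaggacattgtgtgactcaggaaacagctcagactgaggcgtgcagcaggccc

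The libraries held between 3412311 and 5575171 reads on the features of the table. The values below are normalized counts, that is, reads divided by a size factor of the library, so they compare a gene between libraries but not one gene with another, since transcript length was not taken out. The worth of 1 read was between 0.763 and 1.11 normalized counts. Background was read from 836 olfactory receptor genes, which kidney tissue is not known to use at a high level, and their 95th percentile was 2.05, 6.29 and 10.02 normalized counts in control 1, 2 and 3 and 1.86, 5.93 and 9.03 in STZ 1, 2 and 3. It was thus lowest in replicate 1 of both groups. The column headers place the 3 control libraries on lane 3 and STZ 1, 2 and 3 on lanes 7, 6 and 8, so lane and treatment cannot be told apart. Of the 55 members, 17 were at or under 3 reads in every library (10 Wnt and 7 Notch) and 17 lay above the olfactory percentile in every library. A count of 3 reads was taken as the floor of detection.

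No member passed the test between STZ and control. The test was limma on log2(normalized count + 1) over 13486 features whose mean reached at least 5, with Benjamini-Hochberg adjustment and a threshold of 0.05, and 27 members, 21 Wnt and 6 Notch, were high enough to enter it. Of these 27, 0 were called by limma, beside 2.1% of all features tested (283 features), and 0 by edgeR, beside 2.13%. DESeq2 gave an adjusted p for 14 of the 27 and called 0 of these, beside 6.08% of the 9819 features to which it gave one. At an unadjusted p under 0.05 limma counted 4 of the 27 (14.8%), beside 14.7% of all features tested. These 4 were Notch1, Sfrp4, Wnt4 and Dkk3, and all were higher in STZ, beside 1045 higher and 943 lower over all features tested. The 3 values of one group lay entirely outside those of the other in 3 of the 27 members (11.1%), namely Notch1, Sfrp4 and Wnt4, beside 20.3% of all features tested. Both shares of the members were thus near or under the share over all features. The log2 fold change was above 0 in 17 members and below 0 in 10, beside 6814 above and 6672 below over all features tested. The signs of Fzd1, Fzd8 and Wnt5b turned under another scaling or tool. The median log2 fold change of the members was 0.21, against 0.01 over all features. The median standard error was 0.43 for the members and 0.29 for all features.

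**Figure D1:**
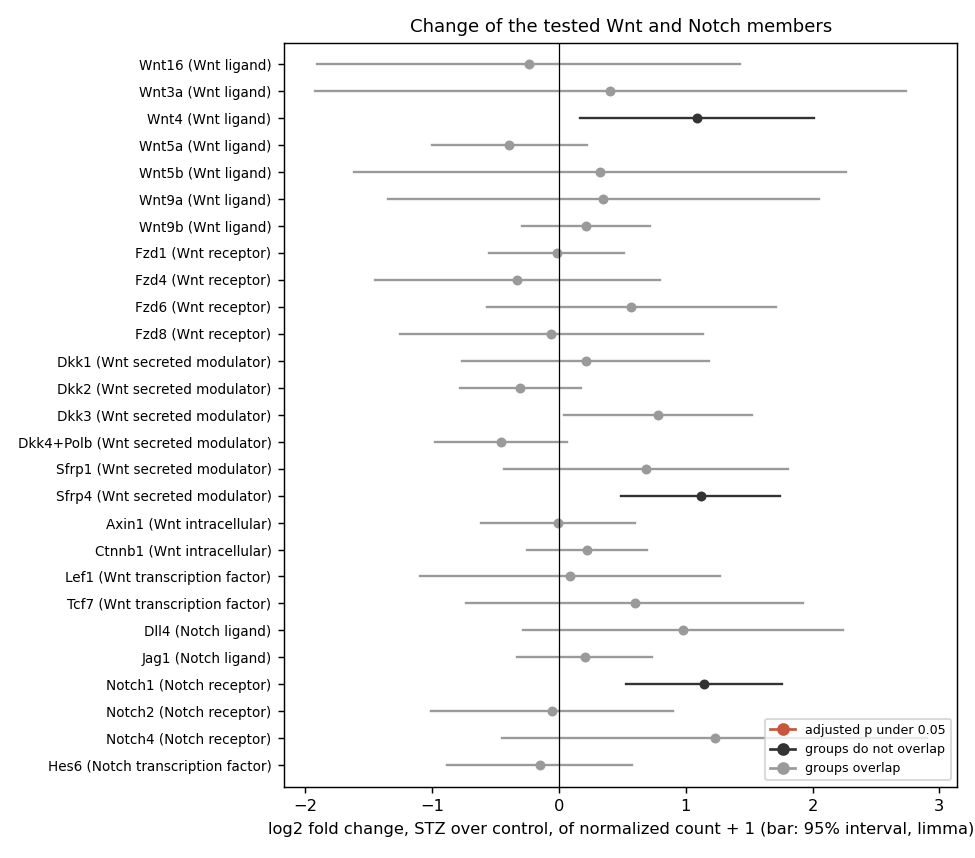
Log2 fold change (STZ over control) with its 95% interval from limma for the 27 members with a mean of at least 5, Wnt members above and Notch members below, ordered by role. Notch1, Sfrp4 and Wnt4 (dark) are the 3 members whose groups do not overlap, and no member reached an adjusted p under 0.05.

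Among the 19 features of Wnt ligands, 7 entered the test and 8 were at or under 3 reads in every library, including Wnt1, Wnt3, Wnt7a, Wnt8b, Wnt10a and Wnt11. Wnt4, a ligand needed for the turning of mesenchyme into nephron epithelium, was higher in every STZ library than in every control library. It measured 5.13, 7.63 and 8.90 normalized counts in the control libraries and 17.6, 14.8 and 16.1 in the STZ libraries. Its log2 fold change of 1.09 ± 0.42 (SE), with a 95% interval from 0.17 to 2.01, did not pass the test (adjusted p = 0.242 by limma). The gene lies on chromosome 5 at 156064349 to 156083190 of rn4. In control replicate 3 its 8.90 normalized counts were below the olfactory percentile of that library.

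Wnt5a, the prototype of ligands that act without beta-catenin, had the most reads of the ligand features, a ranking that transcript length also sets. It measured 701, 1277 and 678 normalized counts in control and 818, 689 and 477 in STZ, and control 2 stood above all other libraries. Its log2 fold change was -0.39 ± 0.28, with an interval from -1.005 to 0.22 (adjusted p = 0.596 by limma), and -0.0949 without control 2. Wnt9b, known as a signal from the collecting duct lineage to the mesenchyme around it, measured 404, 278 and 285 in control and 485, 326 and 316 in STZ. Its groups overlapped, and the interval of its log2 fold change, -0.29 to 0.72, did not reach 1, a doubling.

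Wnt2 was the only member with groups that did not overlap in the direction of lower values in STZ, but its mean of 4.74 kept it out of the test. It had 6, 9 and 6 reads in the control libraries, or 6.15, 6.86 and 6.68 normalized counts, and 3, 4 and 2 reads in the STZ libraries, or 2.79, 3.96 and 2.01 normalized counts. The exact permutation p was 0.1 (two-sided, n = 3 and 3), the smallest this design can give. At these counts, 3 of the 6 libraries lay above the olfactory percentile. Wnt3a, Wnt5b, Wnt9a and Wnt16 entered the test with means between 5.33 and 6.62, their groups overlapped, and the standard errors of their log2 fold changes lay between 0.76 and 1.06. Wnt3a, a canonical ligand, ranged from 0 normalized counts in STZ 1 to 16.1 in STZ 3.

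**Figure D2:**
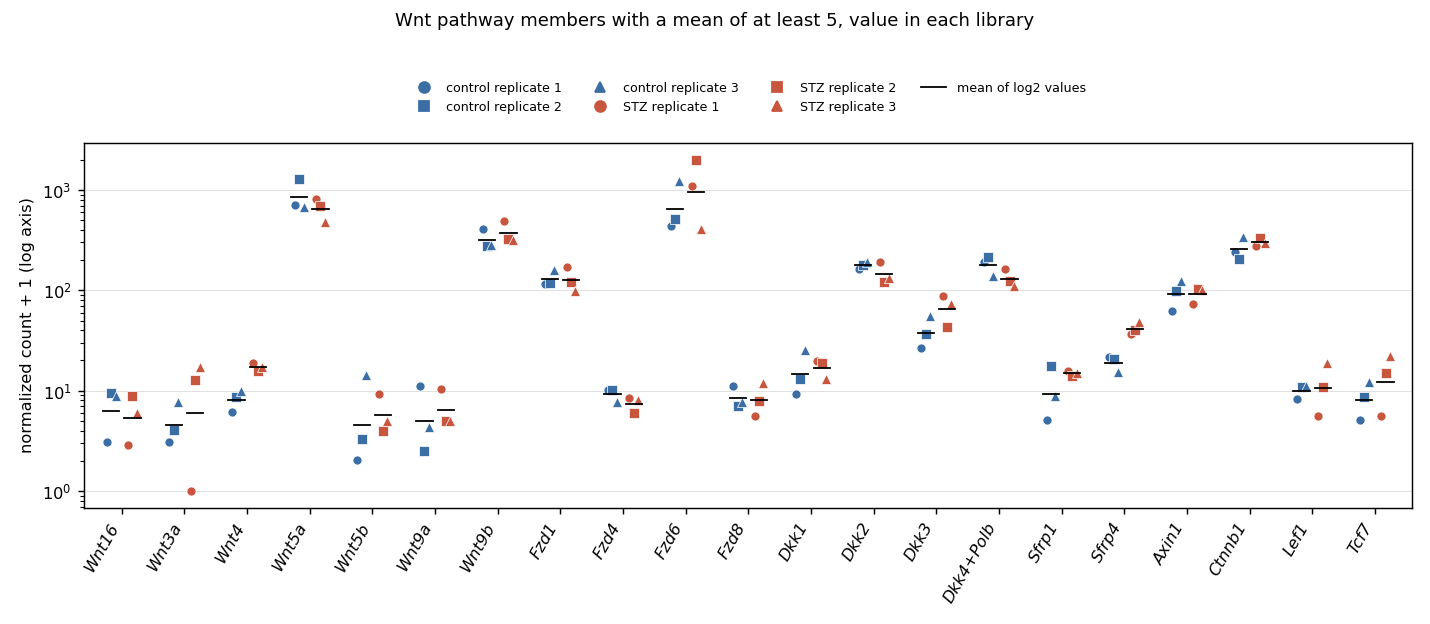
Normalized count plus 1 (log axis) in each of the 6 libraries for the 21 Wnt members with a mean of at least 5, grouped by role from ligands on the left to transcription factors on the right. Blue marks control, red marks STZ, the shape gives the replicate and the bar is the mean of the log2 values. Wnt4 and Sfrp4 separate the groups, and Fzd6 spreads from 407 to 2005 within the STZ group.

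Among the 8 features of frizzled receptors, 4 entered the test and 0 passed it by limma or edgeR, beside 2.1% and 2.13% of all features, with 0 at an unadjusted p under 0.05, beside 14.7%. DESeq2 gave an adjusted p for 2 of them, Fzd1 and Fzd6, and called neither, beside 6.08% of all features with one. Fzd6, a receptor best known from planar cell polarity, had the most reads of the receptors, and its libraries differed widely within both groups. It measured 435, 512 and 1223 normalized counts in control and 1094, 2005 and 407 in STZ, so that the highest and the lowest library both belonged to the STZ group. A log2 fold change of 0.57 ± 0.52 had an interval from -0.57 to 1.71, and it was 0.0413 without STZ 2 and 1.19 without STZ 3. Fzd1 measured 115, 116 and 157 in control and 169, 121 and 98.4 in STZ. Its log2 fold change was -0.02 ± 0.24, with an interval from -0.55 to 0.52, so a log2 fold change of 1 in either direction lies outside it. Fzd4, which also serves as the receptor of norrin in vessels, and Fzd8 were measured at means of 7.41 and 7.61 normalized counts, near the olfactory percentile. Fzd2, Fzd5 and Fzd9 were too low for the test.

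The secreted modulators act before the receptor. The Sfrp proteins bind Wnt ligands outside the cell, and Dkk1, Dkk2 and Dkk4 bind the Lrp co-receptors, while Dkk3 is a divergent member of its family. Of their 8 features 6 entered the test, 0 passed it by limma or edgeR, beside 2.1% and 2.13% of all features, and 2 had an unadjusted p under 0.05, beside 14.7%, namely Sfrp4 and Dkk3. DESeq2 called 0 of the 4 to which it gave an adjusted p, beside 6.08% of all features with one. Sfrp4 measured 20.5, 19.8 and 14.5 normalized counts in control and 35.3, 39.6 and 47.2 in STZ. All 3 STZ values were above all control values. This was a log2 fold change of 1.12 ± 0.28, with an interval from 0.49 to 1.74, and the ratio of the group means was 2.23 (adjusted p = 0.0756 by limma). The gene lies on chromosome 17 at 53121424 to 53131513 of rn4.

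Dkk3 measured 25.6, 35.85 and 54.5 in control and 86.4, 42.5 and 71.3 in STZ. STZ 2 fell among the control values, so the groups overlapped. On the log2 scale the difference was 0.78 ± 0.34 (adjusted p = 0.311 by limma). Dkk2 measured 163, 179 and 190 in control and 188, 119 and 132 in STZ, with a log2 fold change of -0.30 ± 0.22. The feature that merges Dkk4 with Polb, a DNA repair polymerase, measured 192, 216 and 137 in control and 163, 122 and 109 in STZ (log2 fold change -0.46 ± 0.24), and its reads cannot be assigned to either gene. Dkk1 and Sfrp1 were low and overlapped between groups, Sfrp1 with a single low library, control 1, at 4.10 normalized counts beside 7.79 to 16.8 in the other five.

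Inside the cell, Ctnnb1, which encodes beta-catenin, measured 241, 205 and 339 normalized counts in control and 274, 328 and 297 in STZ. Its groups overlapped. The interval around its log2 fold change of 0.22 ± 0.22 spanned -0.25 to 0.70. Axin1, a scaffold of the complex that degrades beta-catenin, measured 61.5, 97.6 and 124 in control and 72.4, 102 and 99.4 in STZ. The interval around -0.01 ± 0.28, its log2 fold change, reached from -0.61 to 0.60. For both genes a log2 fold change of 1 in either direction lies outside the interval.

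Axin2, a scaffold like Axin1 and itself a standard readout of beta-catenin activity, was too low for the test. It had 1.03, 3.05 and 6.68 normalized counts in control and 1.86, 5.93 and 9.03 in STZ. In each library it was at or below the olfactory percentile, so no level above background was read from it. Lef1 and Tcf7, the DNA-binding partners of beta-catenin, had means of 9.95 and 10.4 normalized counts. Tcf7 measured 4.10, 7.63 and 11.1 in control and 4.64, 13.8 and 21.1 in STZ (log2 fold change 0.60 ± 0.60, adjusted p = 0.754 by limma), and Lef1 had a log2 fold change of 0.08 ± 0.54. For Tcf7 it was 0.17 without STZ 3, and it was larger than reported without STZ 1. Replicate 1 was the lowest library of both groups for Lef1, Tcf7, Axin1, Wnt3a, Wnt16, Notch2 and Dll4, which makes 7 of the 27 tested members (25.9%) beside 18.8% of all features tested, and replicate 1 also had the lowest olfactory percentile. The part of this in the members' values was not tested.

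Of the 5 Notch ligand genes, Jag1 and Dll4 entered the test and Dll1, Dll3 and Jag2 were too low for it. Jag1, the ligand with the most reads, measured 228, 177 and 302 normalized counts in control and 318, 284 and 207 in STZ. Its values overlapped between groups, and its log2 fold change of 0.21 ± 0.24 had an interval from -0.33 to 0.74 and was 0.0172 without control 2. Dll4, a ligand of the endothelium, measured 4.10, 6.86 and 14.5 in control and 8.36, 30.7 and 15.1 in STZ. STZ 2 stood highest. A log2 fold change of 0.98 ± 0.57 resulted (adjusted p = 0.483 by limma), which was 0.52 without STZ 2 and 1.41 without control 3.

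Among the Notch receptors, Notch1 had the lowest adjusted p of all members. It measured 16.4, 25.2 and 25.6 normalized counts in control and 57.6, 43.5 and 49.2 in STZ, and every STZ value was above every control value. The group means were 22.4 ± 5.19 and 50.1 ± 7.07 (SD, n = 3 each), a ratio of 2.24. On the log2 scale this was 1.14 ± 0.28, with an interval from 0.53 to 1.76, and the adjusted p by limma of 0.0645 missed the threshold. It was 0.0699 by edgeR and 0.062 by DESeq2, and passed the threshold under 1 alternative, quantile normalization (0.0468). The gene lies on chromosome 3 at 4631807 to 4675880 of rn4.

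Notch2 measured 18.5, 31.3 and 57.9 normalized counts in control and 18.6, 35.6 and 45.2 in STZ, with each STZ value inside the control range. Its log2 fold change was -0.05 ± 0.43, with an interval from -1.01 to 0.90. Notch4, a receptor known from endothelium, measured 5.13, 1.53 and 2.23 in control and 4.64, 4.95 and 18.1 in STZ. STZ 3 stood well above the other libraries, the log2 fold change was 1.23 ± 0.76 (adjusted p = 0.523 by limma), and without STZ 3 the mean was too low for the test. The difference between the receptors' changes was not tested. Notch3 was present only in a feature merged with an overlapping gene, which is not counted as a member. That feature measured 2.05, 18.3 and 35.6 in control and 11.1, 14.8 and 30.1 in STZ, and its groups overlapped.

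The Hes and Hey genes encode helix-loop-helix repressors, several of which are direct Notch targets. Of 6 genes only Hes6, which is known to act against Hes1, entered the test. It measured 30.8, 16.8 and 21.1 normalized counts in control and 23.2, 16.8 and 20.1 in STZ, with a log2 fold change of -0.15 ± 0.33. Hes2, Hes3, Hes5 and Hes7 were at or under 3 reads in every library, and Hes3 was at 0 in all 6. Hey2 measured 3.08, 6.10 and 5.57 in control and 1.86, 0.989 and 9.03 in STZ, so that the STZ group held both the lowest and the highest library. Lfng, a glycosyltransferase that modifies Notch receptors, was at or under 3 reads in every library. Hes1 and Hey1 were not analysed here.

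**Figure D3:**
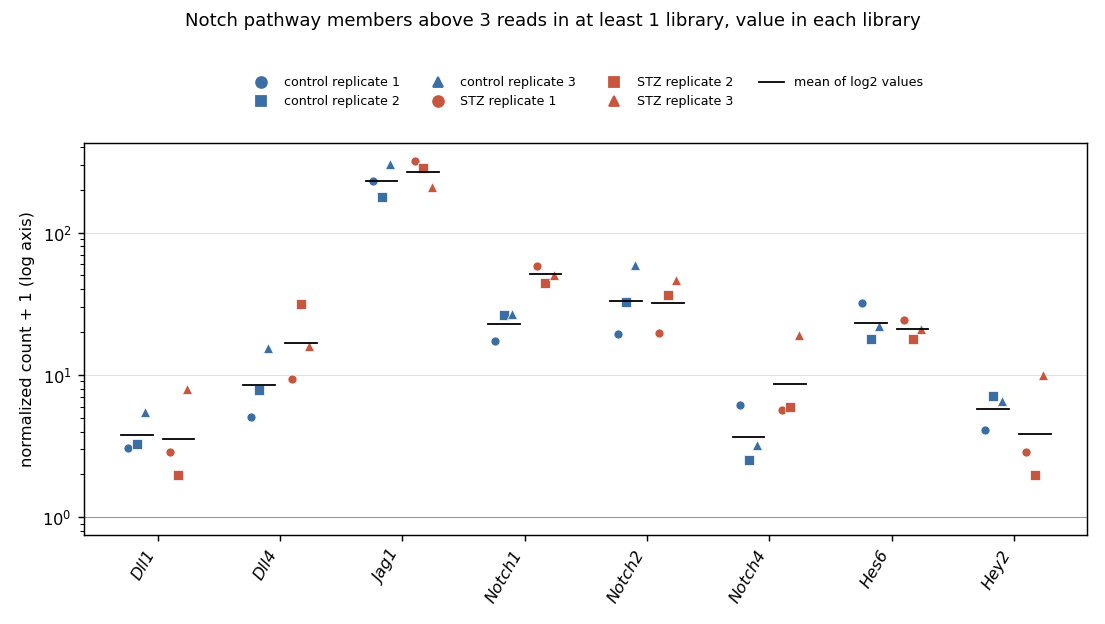
Normalized count plus 1 (log axis) in each library for the 8 Notch members above 3 reads in at least 1 library, ordered as ligands, receptors and transcription factors, with blue for control, red for STZ, the shape for the replicate and a bar at the mean of the log2 values. Notch1 is the member whose groups do not overlap, with 16.4 to 25.6 in control and 43.5 to 57.6 in STZ before 1 is added.

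Other genes of the Wnt pathway were read from a list of 66 genes that holds no member. It gave 53 genes in the table and 42 in the test, of which 2 rose and 0 fell by limma, beside 2.1% called among all features. Sostdc1, a secreted antagonist of Wnt and BMP signalling, measured 2240, 1579 and 2905 normalized counts in control and 5744, 8802 and 8673 in STZ. The lowest STZ library was well above the highest control library. The difference was 1.80 ± 0.27 on the log2 scale, with an interval from 1.21 to 2.40 (adjusted p = 0.00794 by limma). The call held when any 1 library was left out (0.00446 to 0.0475) and was lost without a filter on low values (0.16) and without the trend in limma (0.106). The adjusted p was 0.0088 by edgeR and 1.04e-09 by DESeq2.

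Porcn, the acyltransferase that attaches the lipid Wnt ligands need for secretion, measured 53.3, 69.4 and 41.2 normalized counts in control and 158, 116 and 107 in STZ. All STZ values exceeded all control values. Its log2 fold change was 1.21 ± 0.25, with an interval from 0.66 to 1.77 (adjusted p = 0.0376 by limma). The call was lost whichever of the 6 libraries was left out, with an adjusted p between 0.0548 without control 2 and 0.118 without STZ 1. It was also lost without a filter on low values (0.213) and without the trend in limma (0.169). With all 6 libraries the adjusted p was 0.0386 by edgeR and 0.00431 by DESeq2.

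Across the same 42 genes the groups did not overlap in 11 (26.2%), beside 20.3% of all features, and an unadjusted p under 0.05 was found in 7 (16.7%), beside 14.7%. All 7 were higher in STZ, beside 1045 higher and 943 lower over all features tested. Besides Sostdc1 and Porcn the 7 genes were, named after their values were seen, Rnf43, Rspo3, Dvl3, Prickle1 and Tle2. Rnf43, a ubiquitin ligase that removes frizzled receptors, measured 82.0, 75.5 and 70.1 in control and 120, 140 and 124 in STZ (log2 fold change 0.75 ± 0.20, adjusted p = 0.0833 by limma), and it was called when the minimum mean was raised to 20. Rspo3, a secreted protein that counters Rnf43, measured 16.4, 12.2 and 11.1 in control and 26.0, 21.8 and 30.1 in STZ (0.93 ± 0.33, adjusted p = 0.201 by limma). Neither passed the test as reported.

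The log2 fold change was above 0 in 33 of these 42 genes and below 0 in 9, beside 6814 above and 6672 below over all features tested. The median of the 42 genes was 0.19, against 0.01 over all features. Frzb, a secreted Wnt antagonist related to the Sfrp proteins, measured 513, 544 and 748 in control and 424, 481 and 661 in STZ and did not separate the groups. Csnk1d, a casein kinase, measured 800, 709 and 708 in control and 786, 830 and 753 in STZ (log2 fold change 0.10 ± 0.17). Of the 6 tested genes held in the list as Wnt targets, 0 passed the test by limma or edgeR, beside 2.1% and 2.13% of all features, and 0 had an unadjusted p under 0.05, beside 14.7%. DESeq2 called 0 of the 2 to which it gave an adjusted p, beside 6.08% of all features with one. Among the 6 targets Ccnd1, which encodes cyclin D1, measured 54.3, 76.3 and 66.8 in control and 52.9, 36.6 and 46.2 in STZ. Its STZ values were all lower (log2 fold change -0.53 ± 0.24, adjusted p = 0.345 by limma). Cd44, a hyaluronan receptor, had a log2 fold change of 0.25 ± 0.22, and Ephb2, an ephrin receptor, of 0.18 ± 0.38.

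**Figure D4:**
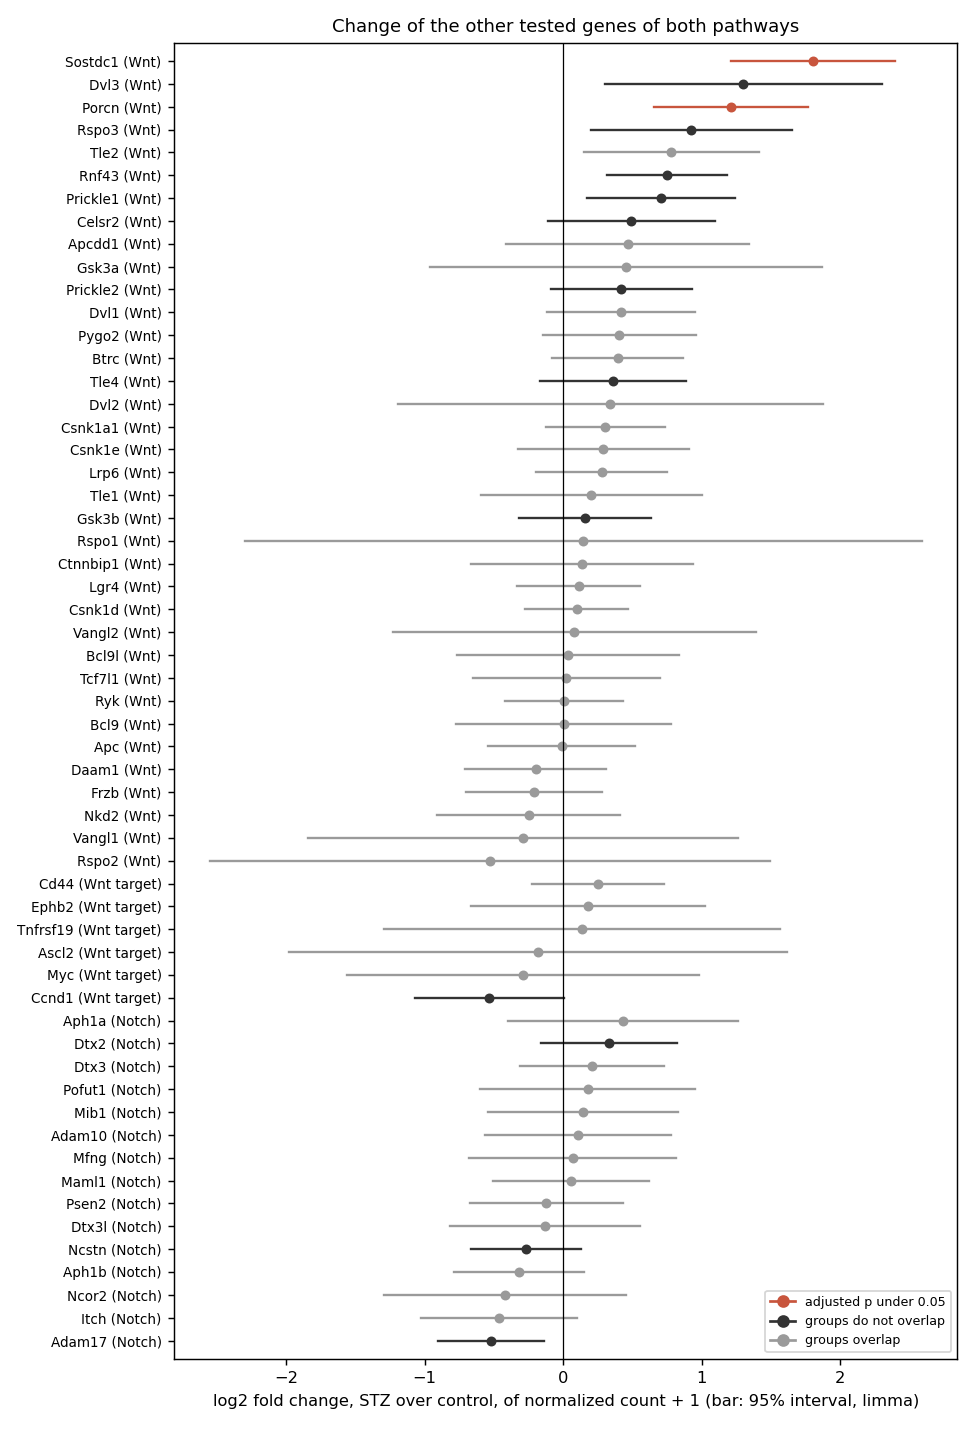
Log2 fold change (STZ over control) with its 95% interval from limma for the other tested genes of both pathways (42 of the Wnt list and 15 of the Notch list), with Wnt genes at the top, Wnt targets in the middle and Notch genes at the bottom, each ordered by size. Sostdc1 and Porcn (red) have an adjusted p under 0.05, dark points mark genes whose groups do not overlap and grey points the others.

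Other genes of the Notch pathway were read from a list of 34 genes, of which 22 were in the table and 15 in the test. None passed it, 0 of 15 by limma, beside 2.1% of all features, and 0 by edgeR, beside 2.13%. DESeq2 called 0 of the 14 with an adjusted p, beside 6.08% of all features with one. At an unadjusted p under 0.05 limma counted 1 gene (6.67%), beside 14.7% of all features. This gene was Adam17, a protease that can cut Notch at the cell surface. It measured 278, 290 and 307 in control and 211, 213 and 186 in STZ, and every STZ value was below every control value (log2 fold change -0.52 ± 0.17, adjusted p = 0.171 by limma).

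The genes of the list with the most reads were Ncstn and Aph1b, which encode subunits of gamma-secretase. Ncstn, the gene of nicastrin, measured 2053, 2259 and 2040 in control and 1720, 1952 and 1618 in STZ, without overlap and with a log2 fold change of -0.27 ± 0.18. Aph1b measured 391, 350 and 270 in control and 315, 276 and 219 in STZ, with overlap (-0.32 ± 0.21). The paralogue Aph1a measured 29.7, 50.3 and 18.9 in control and 54.8, 27.7 and 47.2 in STZ, also with overlap. Of all 15 genes, 8 had a log2 fold change above 0 and 7 below 0, and the groups did not overlap in 3 (20%), beside 20.3% of all features. Besides Adam17 and Ncstn this was Dtx2, a ubiquitin ligase of the pathway, which was higher in STZ and is named after its values were seen.

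The make-up of the tissue was read from marker lists in the same libraries. In bulk RNA, fewer cells of a type and less RNA per cell cannot be told apart. Over all features tested, limma called 2.1% and edgeR 2.13%, and 14.7% had an unadjusted p under 0.05 by limma. DESeq2 called 6.08% of the features to which it gave an adjusted p. The counts of markers below stand beside these shares. Markers of the labelled tissue were present, with Aqp2, the water channel of principal cells, between 2137 and 7413 normalized counts. Of 8 tested principal cell markers 0 passed the test by limma and 0 by edgeR, while 5 had an unadjusted p under 0.05 by limma. DESeq2 called 2 (Aqp2 and Scnn1g) of the 7 to which it gave an adjusted p. Of 5 tested intercalated cell markers limma called 4 lower. All 5 had an unadjusted p under 0.05 by limma and were lower in every STZ library than in every control library. The summed level of the list was 1150 to 2607 in control and 459 to 531 in STZ. Of 5 urothelium markers 2 rose, Upk3a and Upk1b, and the sum of the list was 85.4 to 132 in control and 440 to 517 in STZ. Most of that sum in STZ was Upk3a, with 27.7 to 50.1 in control and 332 to 367 in STZ, while Upk1a overlapped between groups. Of 4 markers of the thick ascending limb 3 had an unadjusted p under 0.05 by limma, all lower in STZ. The test called 2 of them lower by limma (Umod and Egf), and DESeq2 and a minimum mean of 20 also called Slc12a1 lower. The sums of the list, 2680 to 3445 in control and 1598 to 2797 in STZ, overlapped. Cldn10, with 1309 to 1813 in control and 1388 to 2200 in STZ, held the largest part in every library and most of each STZ sum. In control 2 and control 3, Umod, Slc12a1 and Egf together held more than Cldn10. Of 7 endothelium markers limma called 2 lower (Emcn and Plvap) and 1 higher (Vwf). At an unadjusted p under 0.05 by limma there were 6, with 4 lower and 2 higher, so the list had no common direction. Cdh5 and Tek were also lower in every STZ library, Flt1 was higher with overlap, and Pecam1 overlapped between groups. The sums were 7062 to 9125 in control and 3904 to 4269 in STZ. Emcn held the largest part of them in every library, with 4827 to 6520 in control and 2003 to 2246 in STZ.

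Of 6 pericyte and fibroblast markers 1 rose (Pdgfra), with sums of 7498 to 9214 and 4682 to 10896. None of 6 leukocyte, 4 thin limb and 1 proximal tubule markers passed by limma, by edgeR or, where it gave an adjusted p, by DESeq2. In each of these lists 0 markers had an unadjusted p under 0.05 by limma. The shares over all features are those given above for the other marker lists. The sums, control first, were 492 to 2615 and 1433 to 2644 for leukocyte markers and 31015 to 43684 and 29013 to 36653 for thin limb markers. For proximal tubule markers they were 6.15 to 31.2 and 8.36 to 38.1. Most of each sum was Dcn for the pericyte and fibroblast list, Cd74 for the leukocyte list and Cryab for the thin limb list. The tested intercalated cell markers, and single markers of urothelium, the thick ascending limb, endothelium and fibroblasts, thus changed between the same groups. Between these groups Sostdc1 and Porcn passed the test as higher in STZ, while Notch1, Sfrp4 and Wnt4 were higher without passing it. The part of these markers in the members' values was not tested.

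Only Sostdc1 and Porcn of these 5 genes passed the test as reported, and the 5 differ in how far the outcome depends on the setting. Notch1 had an adjusted p between 0.0468 and 0.205 over all alternatives, Sfrp4 between 0.0647 and 0.226, and Wnt4, for which DESeq2 gave no adjusted p, between 0.146 and 0.484. All 3 were higher in STZ under each alternative in which they were tested.

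**Figure D5:**
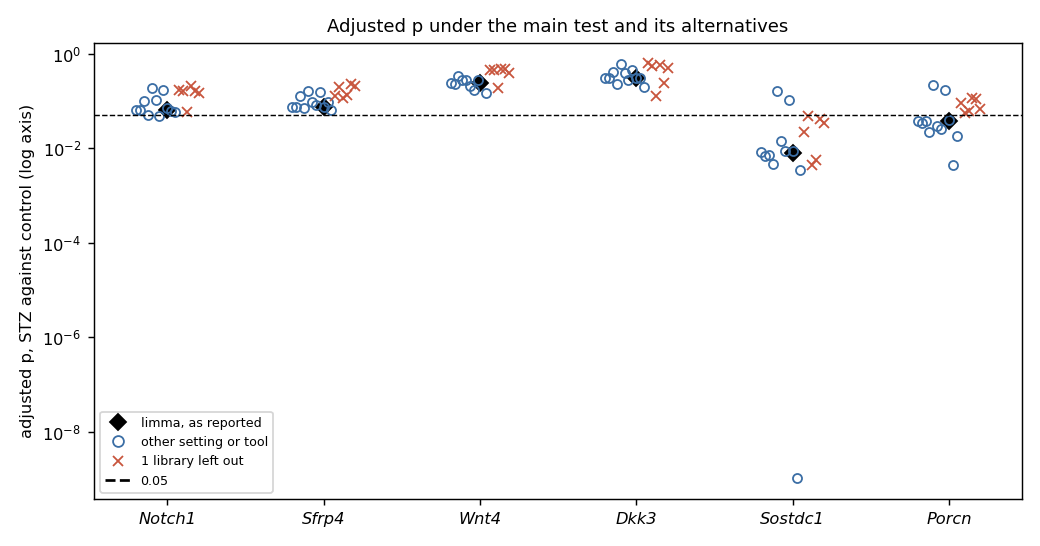
Adjusted p (log axis) of 6 genes in the comparison of STZ with control, as reported from limma (black), under another setting or tool (blue circles) and with 1 library left out (red crosses), with the threshold of 0.05 as a dashed line. Notch1 crosses the line in 1 setting, Sfrp4, Wnt4 and Dkk3 in none, and Sostdc1 and Porcn lie on both sides of it.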

How the data were processed

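RNA of the IM tip was reverse transcribed with a SMARTer PCR kit and sequenced on a HiSeq2000. The authors aligned reads to rn4 with STAR 2.3.1t, counted uniquely mapped reads per gene of an Ensembl rat annotation and normalized them with DESeq 1.16.0. Neither the tool that counted reads nor whether it read the strand is given in the sources used here, and without strand a gene and its antisense partner could share reads. The deposited signal is the count of a feature divided by a size factor per library. Within a library, 100% of the values were whole multiples of 1 step (tolerance 0.001 of a read), which gave the reads. PCR copies were not told apart by molecular identifiers, so floors cover counting error only.

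Groups were compared on the scale of log2(normalized count + 1) for features with a mean of at least 5. The test was that of limma 3.58.1 (R 4.3.3) with its prior variance following the intensity. A fold change on this scale can understate the change of low genes, and its direction can differ from that of the ratio of the group means. For Wnt5b the log2 fold change was 0.32, while the ratio of the group means was 0.92. Adjusted p-values are Benjamini-Hochberg values over all 13486 features. edgeR 4.0.16 (quasi-likelihood test, TMM) and DESeq2 1.42.0 were run on the recovered reads as alternatives, beside other pseudocounts, filters and scalings, a replicate block and each library left out. Single values were compared by two-sided exact permutation tests. The limma, edgeR and DESeq2 fits were run on simulated counts with large known changes. That check covered neither smaller changes nor the permutation test. Members and gene lists were chosen with earlier results of these data known. From the list of other Notch pathway genes, 1 gene is not reported here and is left out of the counts. Values in every library are given for members whose groups do not overlap and whose mean is at least 5, and for those with the highest mean of their role. They are also given for genes past the threshold or with the 3 highest means in the whole list of other Wnt or other Notch pathway genes. Some other members and genes of these lists have them where their values show something a count does not. Positions of genes are those of rn4 and promoter windows those of GRCr8, and none were converted. Python 3.11.15 was used with pandas 2.3.3 and numpy 2.4.6 for summaries, scipy 1.17.1 for exact tests and matplotlib 3.10.9 for plots.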

Additional observations from a re-analysis of the deposited data

How the results depend on the processing

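The number of all features called, 283 by limma as reported, was 98 without a filter on low values, 522 with quantile normalization, 31 without the trend and 597 by DESeq2, and between 86 (without STZ 2) and 341 (without control 3) with 1 library left out. DESeq2 gave no adjusted p to 13 of the 27 tested members. The Wnt members stayed at 0 calls in all 17 alternatives, and the Notch members at 0 except for 1 call, Notch1, with quantile normalization. The other Wnt pathway genes, with 2 calls, had 0 without a filter and 0 without the trend, and 1 to 2 with 1 library left out. With a minimum mean of 20 they had 3, with Rnf43 added. The other Notch pathway genes stayed at 0. Control and STZ libraries share replicate numbers, and the correlation of same-numbered deviations from the group means was 0.395, -0.061 and 0.323 over 9315 features. Replicates 1 and 3 correlated best with their own number, while control 2 and STZ 2 did not. The olfactory percentile also rose from replicate 1 to replicate 3 in both groups. Whether same-numbered libraries share a factor was not tested, and the numbers were not taken as pairs in the test as reported. With the replicate as a block, 561 features were called, the members stayed at 0, and the calls of the 29 genes compared below did not change.

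Among 473 values of 29 genes under the alternatives, 439 kept their sign and call, 23 in 11 genes turned their sign, 1 came under the threshold and 10 no longer passed it. The log2 fold change turned to 0.0144 (edgeR) and 0.00151 (DESeq2) for Fzd1, to 0.0236 (quantile normalization) for Fzd8, and to -0.0554 (edgeR) and -0.0973 (DESeq2) for Wnt5b. With 1 library left out it ranged from -0.28 to 0.22 for Axin1, -0.12 to 0.61 for Dkk1, -0.23 to 0.16 for Fzd1, -0.35 to 0.20 for Fzd8, -0.35 to 0.0727 for Hes6, -0.34 to 0.535 for Lef1, -0.44 to 0.36 for Notch2, -0.76 to 0.21 for Wnt16, -0.14 to 1.70 for Wnt3a, -0.27 to 0.58 for Wnt5b and -0.14 to 0.53 for Wnt9a. The cause was not tested. Genes whose mean fell under the filter of a setting have no value there. Median shifts of all features between scalings stayed within 0.04 on the log2 scale. With 3 libraries a group and few reads, the intervals of members near the olfactory percentile reached past 1 on the log2 scale in at least 1 direction.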
